A study of Mus musculus with 6 samples.

Results

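The genes of the proteasome were described in macrophages sorted from mouse tumours. The members are the rows of the count table whose symbol begins with Psm, a letter from a to g and a digit, together with Pomp, which gave 51 of 21878 genes. Psmb8, Psmb9, Psmb10, Psme1 and Psme2 are treated as the interferon-inducible subgroup. The table holds 6 libraries of bulk RNA, 3 in each of 2 groups. Every animal carried the floxed alleles of Trmt61a (Trmt61af/f) and bore an MC38 colon carcinoma injected 14 days before. The WT group had no Cre. The KO group also carried LysmCre, which drives recombination in myeloid cells as a whole, so monocytes and neutrophils can be recombined too. The strain, age and sex of the mice and the sorting gate are not given in the sources used here. Nothing in the labels tells whether each library came from its own animal, so p-values measure the spread between libraries, which may be partly technical.

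The proteasome is the protease that degrades ubiquitin-tagged proteins in the cytosol and nucleus. Its barrel, the 20S core, is built of outer alpha rings and inner beta rings, and the 19S cap recognises the tagged protein, removes the ubiquitin, unfolds the chain with a ring of ATPases and feeds it in. Interferon gamma induces 3 beta subunits, Psmb8, Psmb9 and Psmb10, that take the place of Psmb5, Psmb6 and Psmb7 in newly built cores, and the cap subunits Psme1 and Psme2. The resulting immunoproteasome produces many of the peptides that MHC class I molecules display, and macrophages are among the cells that express it.

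Library totals ran from 18839026 to 20313597 counts. Trmt61a was at 6.95 to 8.01 CPM (counts scaled to the TMM-adjusted library total) in the WT libraries and at 1.73 to 2.46 CPM in the KO libraries, so all 6 libraries followed their labels. Macrophage markers were all detected, 11 of 11, with summed levels of 14830 to 16238 CPM in WT and 14109 to 16127 CPM in KO. In bulk RNA, fewer cells of a type and less RNA per cell cannot be told apart.

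Most proteasome genes were slightly lower in KO, and none of them passed the test. Of the 51 members 50 had enough reads to be tested, and 46 of these had a negative log2 fold change (KO over WT), where 50.2% of all 12136 tested genes were negative. The median was -0.098 over the members and -0.00088 over all tested genes. Among genes with a mean of at least 10 CPM, 44 of 47 members had a negative value (median -0.097), against 52.2% of 8576 genes (median -0.0074). The members share the same 6 libraries, so their common sign is not a set of independent observations. By edgeR's quasi-likelihood test with Benjamini-Hochberg adjustment, 0 members were called, against 0.0165% of all tested genes, and the smallest adjusted p among the members was 0.72. At an unadjusted p under 0.05, 0 members were lower and 0 higher with edgeR, where 3.06% and 3.86% of all tested genes were. At an adjusted p under 0.05, DESeq2 and limma-voom also called 0 members. The 95% interval of the log2 fold change included 0 for all 50 tested members. Changes in mean level ran from -24.4% to 8.85%. Without WT replicate 1, 39 members were negative and the median was -0.049, and without both WT replicate 1 and KO replicate 1 these were 31 and -0.014.

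**Figure D1:**
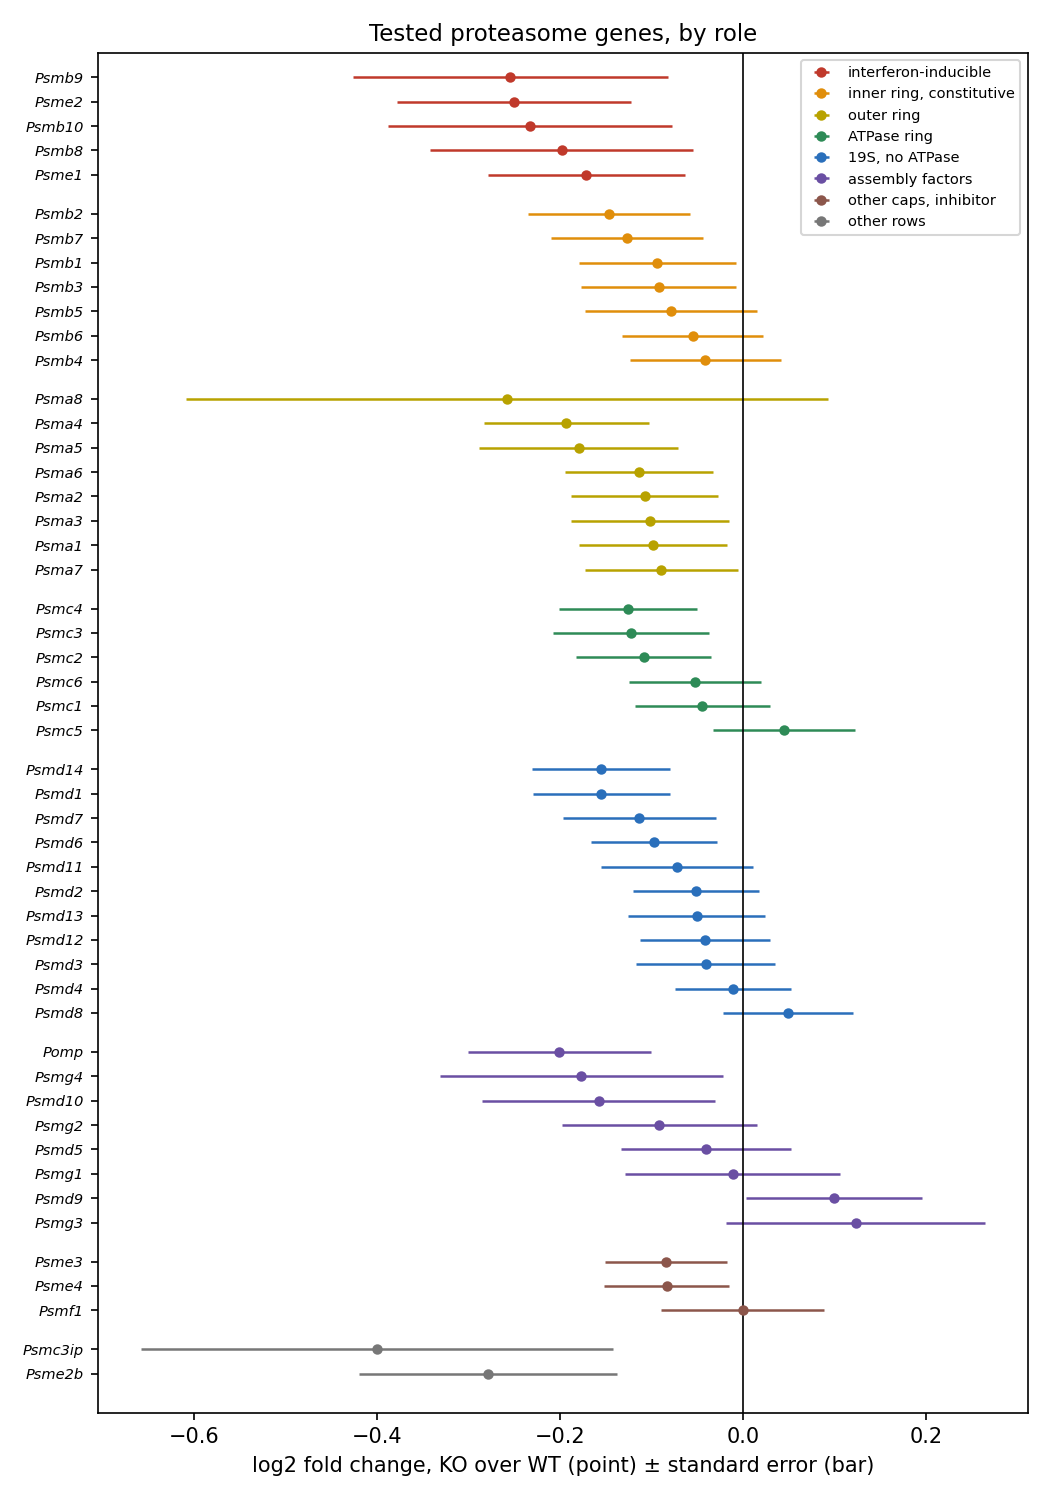
Log2 fold change of KO over WT (x axis) for the 50 tested proteasome genes, grouped by role; points are edgeR estimates and bars their standard errors, with 3 libraries per group. All but 4 points lie left of 0, the 5 interferon-inducible genes between -0.25 and -0.17, and none passed the test.

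The interferon-inducible subgroup had a median of -0.23 over 5 genes, beside -0.092 over the 45 other tested members. None of the 5 passed, and in each of them the KO libraries overlapped the WT libraries. Psmb8, the immune subunit with chymotrypsin-like activity (NCBI Gene 16913, GRCm38 chromosome 17, 34197721 to 34201454, plus strand), was at 329, 268 and 273 CPM in the WT libraries and at 198, 275 and 286 CPM in the KO libraries. WT replicate 1 was highest and KO replicate 1 lowest, and the other 4 libraries lay close together across both groups. The log2 fold change was -0.20 (SE 0.144, 95% interval -0.53 to 0.13, edgeR adjusted p = 0.793).

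Psmb9, which replaces the caspase-like Psmb6 (NCBI Gene 16912, chromosome 17, 34181987 to 34187764, minus strand), was at 108, 81.2 and 87.6 CPM in the WT libraries and at 57.6, 86.0 and 88.3 CPM in the KO libraries. Its log2 fold change was -0.25 (SE 0.172, 95% interval -0.65 to 0.14, edgeR adjusted p = 0.785). KO replicates 2 and 3 stood between WT replicates 1 and 2. Psmb10, which replaces the trypsin-like Psmb7 (NCBI Gene 19171, chromosome 8, 105935735 to 105938444, minus strand), was at 183, 141 and 144 CPM in the WT libraries and at 104, 141 and 153 CPM in the KO libraries. Its log2 fold change was -0.23 (SE 0.155, 95% interval -0.59 to 0.12, edgeR adjusted p = 0.785). Here too a single library of each group stood apart, and the remaining KO libraries reached the WT levels.

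The activator subunits Psme1 and Psme2 form the PA28 ring that opens the core, and their genes lie 5.91 kb apart on chromosome 14. Psme1 (NCBI Gene 19186, 55578123 to 55581529, plus strand) was at 210, 191 and 179 CPM in the WT libraries and at 145, 180 and 190 CPM in the KO libraries (log2 -0.17, SE 0.108, edgeR adjusted p = 0.775). Psme2 (NCBI Gene 19188, 55587441 to 55591113, minus strand) was at 193, 152 and 156 CPM in the WT libraries and at 117, 146 and 158 CPM in the KO libraries (log2 -0.25, SE 0.128, edgeR adjusted p = 0.725). Both repeated the order of the catalytic subunits, with WT replicate 1 highest and KO replicate 1 lowest.

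Psme2b, a copy of Psme2 on chromosome 11, held 24.2% to 26.6% of the summed Psme2 and Psme2b level in each library. It was at 64.5, 51.7 and 56.4 CPM in the WT libraries and at 37.2, 51.3 and 53.7 CPM in the KO libraries. How the counting divided reads between these near-identical genes is not given, so both are uncertain. Their sum was 224 ± 28.9 CPM in WT and 188 ± 29.8 CPM in KO (SD, n = 3 each), a log2 ratio of -0.26. The sum overlapped between the groups as each gene did.

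The negative values of the subgroup shrank without WT replicate 1 or KO replicate 1, and all 5 stayed negative with either left out alone. Leaving out WT replicate 1 gave log2 values of -0.10 for Psmb8, -0.13 for Psmb9, -0.10 for Psmb10, -0.11 for Psme1 and -0.13 for Psme2. Without KO replicate 1 they were -0.050, -0.081, -0.087, -0.062 and -0.14 in the same order. With both left out, 1 of the 5 was negative and the median was 0.043. These libraries were picked because they were the extremes, so leaving both out must shrink the difference. In the same libraries Irf1, the interferon-induced factor that acts on the immune subunit genes, was at 407 CPM (WT replicate 1) and 216 CPM (KO replicate 1). The other 4 libraries lay between 297 and 337 CPM. Of the other interferon gamma signalling genes listed, Jak2 had the same highest and lowest library. Jak1 and Ifngr2 shared only the highest library, Nlrc5 and Irf8 only the lowest, and Ifngr1 neither. Any part of Irf1 in these values was not tested.

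**Figure D2:**
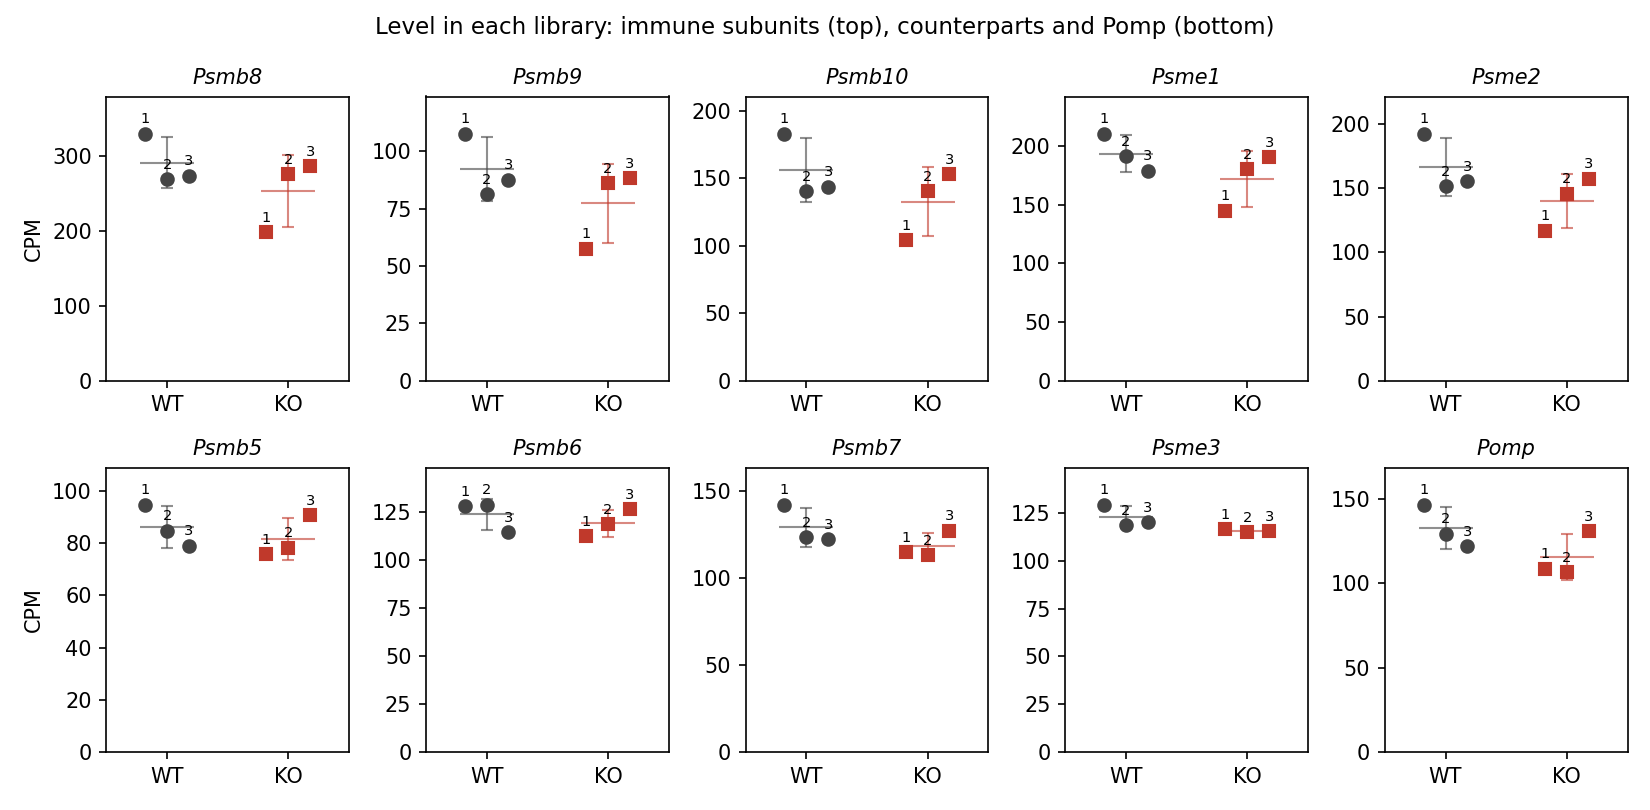
Level in CPM (y axis, from 0) in each WT (grey circles) and KO (red squares) library, numbered by replicate, with the group mean ± SD, for the 5 interferon-inducible genes (top) and for Psmb5, Psmb6, Psmb7, Psme3 and Pomp (bottom). In the top row WT replicate 1 is highest and KO replicate 1 lowest in every gene, as for Psmb8 at 329 and 198 CPM.

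Markers of other cells were compared beside these values. Neutrophil markers, 11 of 11 in the table, summed to 85.4 to 120 CPM in WT and 132 to 182 CPM in KO, with KO replicate 1 highest, and Mmp9 contributed most. Dendritic cell markers summed to 14.6 to 26.8 CPM in WT and 19.9 to 37.8 CPM in KO, and T and NK cell markers, 11 of 12 in the table, to 16.7 to 23.4 CPM and 13.9 to 46.8 CPM, with KO replicate 2 highest in both. B cell markers summed to 1.46 to 1.68 CPM in WT and 0.986 to 2.73 CPM in KO. Epithelial markers summed to 77.0 to 141 CPM in WT and 112 to 134 CPM in KO, nearly all of it Cdh1, and fibroblast and endothelial markers to 248 to 333 CPM and 252 to 311 CPM. No listed marker in the table was at 0 in all 6 libraries. Their part in the result was not tested.

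Psmb9 and Psmb8 sit beside the peptide transporter genes Tap1 and Tap2 in the MHC region of chromosome 17, in the order Psmb9, Tap1, Psmb8, Tap2. Psmb9 and Tap1 run in opposite directions and share 212 bases in the annotation, and 495 bases separate Tap1 from Psmb8. Whether the counting used strand is not given, so reads in the shared stretch cannot be assigned with certainty. Tap1 was at 383, 284 and 316 CPM in the WT libraries and at 195, 313 and 283 CPM in the KO libraries (log2 -0.31, SE 0.180, edgeR adjusted p = 0.754). Tap2 was at 240, 184 and 187 CPM in the WT libraries and at 140, 205 and 183 CPM in the KO libraries (log2 -0.21, SE 0.153, edgeR adjusted p = 0.795). In both transporter genes WT replicate 1 was highest and KO replicate 1 lowest, as in Psmb8 and Psmb9. Members on other chromosomes, among them Psmb10, Psme1 and Psme2, had the same extremes, so these were not particular to this region.

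Promoter letters were searched for motifs known from these genes, in RefSeq promoters of GRCm38.p6 that span 250 bases before to 50 after each start, on both strands. Of the 51 members 43 matched an entry, with 46 promoters between them. A member counted as matched if any of its promoters held the motif, while the shares over all are of single promoters. The gamma-activated site of interferon gamma target genes, TTCNNNGAA, was in the promoter of 3 of the 43 (Psmb8, Psmd2 and Psmg1). That is 6.98%, beside 8.3% of all 32851 promoters. The core of the interferon-stimulated response element, TTTCNNTTTC, was in 5 of the 43 (Psme1, Psmb3, Psmd4, Psmd9 and Psmg4), or 11.6%, beside 3.44% of all. For either motif, 1 matched gene belonged to the interferon-inducible subgroup. How many of that subgroup had a promoter entry was not counted, so the others are not shown to lack the motif. The core of the antioxidant response element, TGACNNNGC, known as a site of the factors Nfe2l1 and Nfe2l2, was in 6 of the 43. These were Psmb5, Psmb6, Psmc6, Psmd9, Psmd12 and Psme4, or 14.0%, beside 12.4% of all. The matches in an immune subunit, an activator and the 2 constitutive counterparts are shown, with the motif in capitals, 5′ to 3′ on the gene's strand.
Psmb8, chr17:34198088-34198117, plus strand: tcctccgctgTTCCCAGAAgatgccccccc
Psme1, chr14:55578493-55578522, plus strand: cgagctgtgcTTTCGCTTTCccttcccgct
Psmb5, chr14:54618009-54618068, minus strand: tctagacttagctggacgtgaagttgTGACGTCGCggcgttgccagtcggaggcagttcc
Psmb6, chr11:70525297-70525356, plus strand: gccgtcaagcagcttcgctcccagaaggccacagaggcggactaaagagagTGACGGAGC
Counted from the RefSeq start, the Psmb8 match begins 97 bases before it, the Psme1 match at base 10 after it, and the Psmb5 and Psmb6 matches 47 and 9 bases before it. RefSeq starts are not the gene starts printed here from GENCODE, where the matches of Psmb8 and Psme1 fall inside the gene and those of Psmb5 and Psmb6 lie before it. A match is a description of the letters and not a measured binding site. Psmd9 alone held matches to 2 of these motifs, at separate places.

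Each immune subunit was then set against the subunit it replaces, as a ratio of counts within a library, which does not depend on library size. The ratio of Psmb8 to Psmb5 was 3.48, 3.17 and 3.45 in WT and 2.61, 3.51 and 3.15 in KO. The ratio of Psmb9 to Psmb6 was 0.839, 0.630 and 0.764 in WT and 0.511, 0.723 and 0.698 in KO. KO replicate 1 had the lowest value of both. For Psmb8 the other KO libraries lay just above and just below the WT range, and for Psmb9 within it.

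The ratio of Psmb10 to Psmb7 was 1.29, 1.14 and 1.18 in WT and 0.910, 1.24 and 1.21 in KO. For the activators, the geometric mean of Psme1 and Psme2 over Psme3, which forms a nuclear cap of the same family, was 1.56, 1.44 and 1.39 in WT and 1.12, 1.41 and 1.498 in KO. Again KO replicate 1 alone stood below the WT range in both. On the log2 scale the differences of KO from WT were -0.13, -0.22, -0.12 and -0.13 in the order given. None of the 4 exceeded the spread between libraries (two-sided exact permutation p = 0.6, 0.4, 0.7 and 0.5, each 0.7 after Benjamini-Hochberg adjustment over the 4 ratios). The smallest p that 3 libraries against 3 allow is 0.1. Without KO replicate 1 the differences were -0.015, -0.057, 0.027 and -0.0046.

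**Figure D3:**
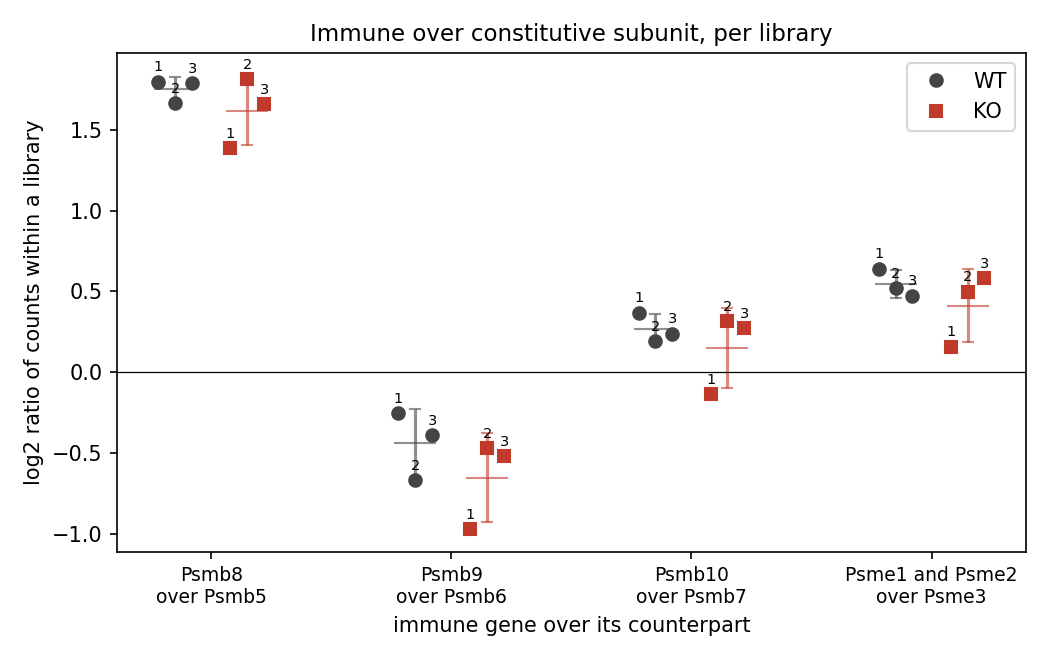
Log2 ratio of counts within a library (y axis) for each immune gene over its counterpart, in WT (grey circles) and KO (red squares), numbered by replicate, with the group mean ± SD. KO replicate 1 is lowest in all 4 ratios and the other KO libraries fall within or close to the WT range, as for Psmb8 over Psmb5 at 1.39 against 1.81 and 1.66.

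The constitutive catalytic subunits had less negative fitted values than their immune counterparts. The ratios above describe this difference, and their test, with a smallest possible p of 0.1, could not have passed 0.05. Without KO replicate 1 the order was reversed for Psmb7 (-0.11) and Psmb10 (-0.087), while the other pairs kept theirs. Psmb5, the chymotrypsin-like subunit (chromosome 14, 54614119 to 54618022, minus strand), was at 94.7, 84.8 and 79.0 CPM in the WT libraries and at 75.8, 78.3 and 90.7 CPM in the KO libraries (log2 -0.079, SE 0.0943, edgeR adjusted p = 0.868). Psmb6, the caspase-like subunit, was at 128, 129 and 115 CPM in the WT libraries and at 113, 119 and 127 CPM in the KO libraries (log2 -0.055, SE 0.0772, edgeR adjusted p = 0.886). Psmb7, the trypsin-like subunit, was at 142, 123 and 122 CPM in the WT libraries and at 115, 113 and 127 CPM in the KO libraries (log2 -0.13, SE 0.0834, edgeR adjusted p = 0.78). In all 3 the groups overlapped, with KO replicate 3 above at least 1 WT library. Leaving out single libraries moved Psmb5 between -0.16 (KO replicate 3) and -0.0034 (WT replicate 1), and Psmb6 between -0.11 (WT replicate 3) and -0.015 (KO replicate 1).

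All 7 constitutive inner ring genes had negative values, from -0.15 to -0.041, with a median of -0.092 (6 of 7 and -0.043 without WT replicate 1, 6 of 7 and -0.060 without KO replicate 1, -0.050 without KO replicate 2 and -0.17 without KO replicate 3). Psmb2, a structural subunit, had the smallest p of them and was at 100, 85.8 and 87.2 CPM in the WT libraries and at 77.0, 79.8 and 89.9 CPM in the KO libraries (log2 -0.15, SE 0.0883, edgeR adjusted p = 0.756). The value of Psmb2 was -0.071 without WT replicate 1, and that of Psmb7 was -0.051. Psmb1, Psmb3 and Psmb4, which complete the ring without a protease site, lay between -0.093 and -0.041.

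The outer ring genes Psma1 to Psma8, whose proteins form the gate of the core, were negative in 8 of 8, with a median of -0.11, or -0.056 without WT replicate 1 and -0.17 without KO replicate 3. Psma4 was at 136, 117 and 113 CPM in the WT libraries and at 98.0, 114 and 110 CPM in the KO libraries (log2 -0.19, SE 0.0904, edgeR adjusted p = 0.72), the smallest adjusted p of any member. Psma5 was at 99.9, 85.0 and 76.5 CPM in the WT libraries and at 70.5, 75.0 and 85.3 CPM in the KO libraries (log2 -0.18, SE 0.109, edgeR adjusted p = 0.756). Without WT replicate 1 these were -0.11 and -0.068. In Psma4 only KO replicate 2, at 114 CPM, reached above the lowest WT library, and in Psma5 KO replicate 3 passed 2 WT libraries. Psma8, the copy used in the testis, was low, averaging 1.92 ± 0.481 CPM over WT and 1.60 ± 0.592 CPM over KO (SD, n = 3 each). The other 5 outer ring genes lay between -0.11 and -0.089.

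In the 19S cap, 5 of 6 ATPase genes were negative, with a median of -0.080. These were 4 of 6 and -0.035 without WT replicate 1, and without KO replicate 1 the median was -0.048. Psmc4 was at 117, 107 and 107 CPM in the WT libraries and at 94.7, 108 and 101 CPM in the KO libraries (log2 -0.13, SE 0.0756, edgeR adjusted p = 0.755). Psmc2 was at 106, 93.9 and 94.7 CPM in the WT libraries and at 91.1, 88.6 and 93.8 CPM in the KO libraries (log2 -0.11, SE 0.0737, edgeR adjusted p = 0.785). The KO libraries of Psmc2 lay below all WT libraries by a narrow margin, while KO replicate 2 of Psmc4 was above 2 WT libraries. Without WT replicate 1 their values were -0.082 and -0.047. Psmc5 was the ATPase gene on the positive side, averaging 88.8 ± 7.63 CPM over WT and 91.6 ± 1.53 CPM over KO (SD, n = 3 each).

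Of the 11 cap genes that encode no ATPase, 10 were negative, with a median of -0.051. They were 7 and -0.022 without WT replicate 1, and without WT replicate 2 the median was -0.087. Psmd1, a large scaffold subunit of the base (chromosome 1, 86064387 to 86139151, plus strand), was at 193, 177 and 181 CPM in the WT libraries and at 173, 153 and 169 CPM in the KO libraries (log2 -0.15, SE 0.0748, edgeR adjusted p = 0.724). All 3 KO libraries were below all 3 WT libraries, and the value ran from -0.19 to -0.10 when single libraries were left out. Psmd14, the deubiquitinase that cuts the ubiquitin chain off the substrate, was at 91.5, 86.9 and 83.4 CPM in the WT libraries and at 73.5, 78.0 and 83.7 CPM in the KO libraries (log2 -0.15, SE 0.0754, edgeR adjusted p = 0.725). Only KO replicate 3 of Psmd14 reached the lowest WT library. Psmd1 was at -0.16 with both WT replicate 1 and KO replicate 1 left out, while Psmd14 shrank to -0.078. Psmd8, a lid subunit, was positive at 0.049 (SE 0.0713), and Psmd4, the ubiquitin receptor, averaged 104 ± 2.15 CPM over WT and 103 ± 2.33 CPM over KO (SD, n = 3 each).

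The assembly factors were mixed, with 6 of 8 negative and a median of -0.066. These were 4 of 8 and -0.022 with WT replicate 1 left out. The median was -0.042 without KO replicate 1, -0.10 without WT replicate 3 and -0.10 without KO replicate 3. Pomp, the chaperone that matures the core and is needed for immune subunits to be built in (chromosome 5, 147860461 to 147876456, plus strand), was at 146, 129 and 122 CPM in the WT libraries and at 109, 106 and 131 CPM in the KO libraries (log2 -0.20, SE 0.10, edgeR adjusted p = 0.725). Its lowest libraries were KO replicates 1 and 2, and KO replicate 3 stood above 2 WT libraries. Without WT replicate 1 the value was -0.12. Psmd10, a chaperone of the 19S base also called gankyrin, was at 32.7, 35.0 and 25.3 CPM in the WT libraries and at 27.5, 25.4 and 30.5 CPM in the KO libraries (log2 -0.16, SE 0.127, edgeR adjusted p = 0.807). Here the lowest library was a WT one, and the value was -0.054 without WT replicate 2, -0.096 without KO replicate 2 and -0.28 without WT replicate 3. The core chaperones Psmg1 to Psmg4 ranged from -0.18 to 0.12, Psmd5 was at -0.040, and the base chaperone Psmd9 was positive at 0.10 (SE 0.0959).

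Among the other caps and the inhibitor, Psme3 was at 129, 119 and 120 CPM in the WT libraries and at 117, 115 and 116 CPM in the KO libraries (log2 -0.084, SE 0.0664, edgeR adjusted p = 0.803). Psme4, the PA200 activator, was at 114, 103 and 107 CPM in the WT libraries and at 103, 100 and 104 CPM in the KO libraries (log2 -0.083, SE 0.0683, edgeR adjusted p = 0.808). The Psme3 libraries did not overlap between the groups, while those of Psme4 did, and both values came closer to 0 without WT replicate 1 (-0.043 and -0.041). Psmf1, the inhibitor PI31, averaged 26.6 ± 1.91 CPM over WT and 26.6 ± 0.824 CPM over KO (SD, n = 3 each).

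Psmc2, Psmd1, Psmd6 and Psme3 were the members whose KO libraries all lay below the WT libraries, and no member had the reverse. That is 4 of 50 tested members, where 6.3% of all tested genes had all KO libraries below and 6.11% had all above. Psmd6, a lid subunit named after its values were seen, was at 70.4, 67.3 and 65.9 CPM in the WT libraries and at 64.0, 60.9 and 65.4 CPM in the KO libraries. The share among the members was therefore near the background. The count depended on single libraries: it was 24 without KO replicate 3, where 15.7% of all tested genes had all KO libraries below, 11 without WT replicate 3 (10.4%) and 9 without WT replicate 2 (12.6%).

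Psmc3ip is in the set by the spelling of its symbol, and Psmb11 by family. Psmc3ip encodes a partner of the recombinases in meiosis and averaged 4.17 ± 0.635 CPM over WT and 3.15 ± 0.983 CPM over KO (log2 -0.40, SE 0.258, edgeR adjusted p = 0.779). Psmb11, the catalytic subunit of the thymus, had 0 counts in all 6 libraries. A count of 0 allows up to 3 counts, or 0.148 to 0.157 CPM per library, counting error only. Psmb11 was the member that was not tested.

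The libraries were ordered alike across most members. WT replicate 1 was the highest of the 6 libraries for 40 of 50 tested members, where it was highest for 21.7% of all tested genes. KO replicate 1 was lowest for 24 members and KO replicate 2 for 17, so 41 of 50 were lowest in one of these, against 40.6% of all tested genes. KO replicate 3 was lowest for 0 members and highest for 5, where it was lowest for 15.8% and highest for 15.1% of all tested genes. As medians of log2 CPM centred on the 6 libraries, the interferon-inducible genes stood at 0.34 in WT replicate 1 and -0.44 in KO replicate 1, and between -0.0093 and 0.083 in the other 4. The other members stood at 0.13 in WT replicate 1, -0.082 in KO replicate 1, -0.074 in KO replicate 2 and 0.043 in KO replicate 3. KO replicate 2 was thus low in the constitutive genes and not in the interferon-inducible ones, while KO replicate 1 was low in both. The difference between these patterns was not tested.

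**Figure D4:**
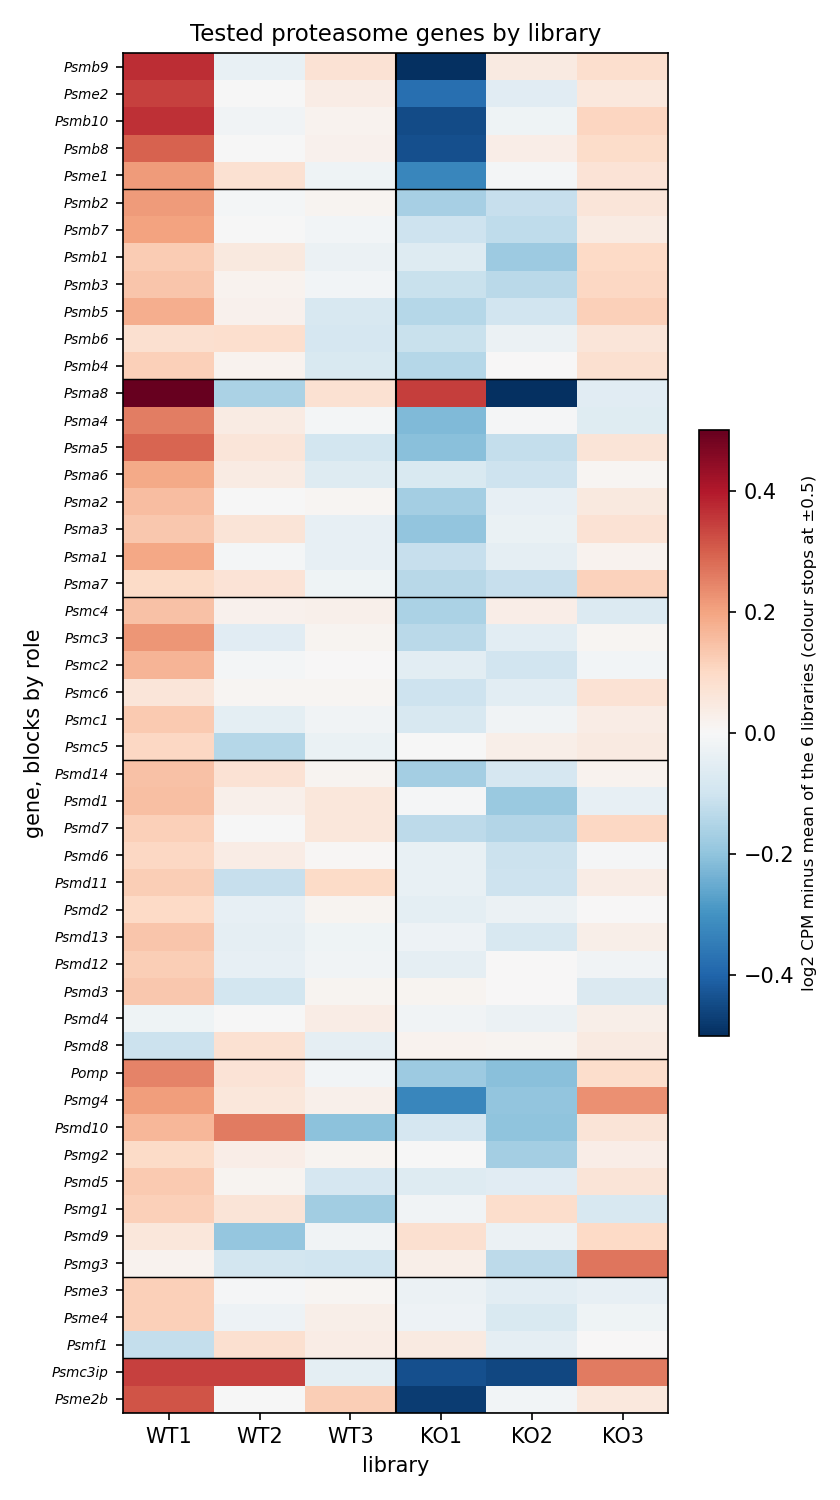
Log2 CPM of each tested proteasome gene (rows, in blocks by role) in each library (columns), minus the mean of the 6 libraries; the colour scale stops at ±0.5. The WT1 column is red in most rows, the KO1 column is darkest blue in the top block of interferon-inducible genes, and KO3 is mostly near or above 0.

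Levels of different members were compared per kilobase of annotated exon. The 14 constitutive core genes Psma1 to Psma7 and Psmb1 to Psmb7, whose proteins enter the core in equal numbers, had WT levels per length that spanned 4.27-fold, from Psma3 at 23.9 ± 1.46 to Psma6 at 102 ± 9.22 CPM per kb (SD, n = 3). By this length Psma6 had the highest level of the tested members and Psma8 the lowest, 0.769 CPM per kb. Psmb5, Psme2, Psmb10, Psmb4, Psme1, Psmb8 and Psmd2 followed Psma6 in that order, from 95.9 to 84.2 CPM per kb, with SDs of 4.19 to 13.9, so neighbours in this order did not differ beyond their spread. With the longest transcript as the length, Psme2 (173 CPM per kb), Psmb8 (152), Psmb4 (148) and Psmb6 (128) came before Psma6 (121), so the order at the top depends on the length used. Assembly factors ranged from 3.23 CPM per kb for Psmg3 to 25.4 CPM per kb for Pomp.

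Between the exchange partners, Psmb8 was at 85.8 ± 10.04 and Psmb5 at 95.9 ± 8.86 CPM per kb in WT, which overlap within their SDs. Psmb9 was lower than Psmb6, at 25.2 ± 3.79 against 66.3 ± 4.33 CPM per kb, and Psmb10 was higher than Psmb7, at 91.5 ± 13.9 against 37.7 ± 3.26 CPM per kb (SD, n = 3 each). With the longest transcript as the length, the order of the last 2 pairs was the same, and Psmb8 came above Psmb5, at 152 against 95.9 CPM per kb. The annotated lengths include exons that these cells may not use.

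**Figure D5:**
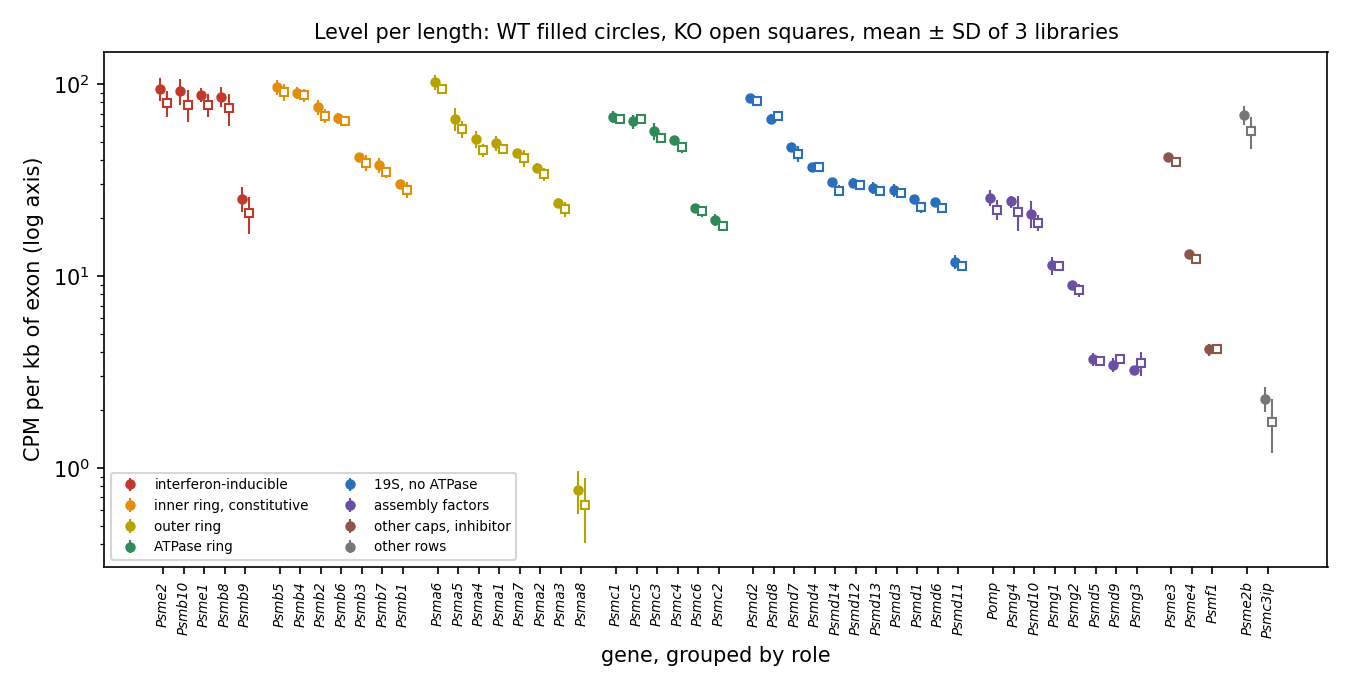
WT (filled circles) and KO (open squares) level in CPM per kb of exon, on a log axis, for the 50 tested genes grouped by role, as mean ± SD of 3 libraries. The interferon-inducible genes except Psmb9 sit near the top of the core genes, and Psma8 and Psmc3ip sit lowest.

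Other genes of the pathway were read from 5 lists. DESeq2 and limma-voom called 0 genes of each. Of 9 tested proteasome-associated genes with other symbols 4 were negative and 5 positive, with a median of 0.013 (5 of 9 negative with medians of -0.032 and -0.041 without WT replicate 3 or KO replicate 3), and 0 were called with edgeR (0 at an unadjusted p under 0.05). Akirin2, which brings proteasomes into the nucleus, had a log2 value of 0.14 (SE 0.0675), and Zfand5, an activator of the 26S proteasome, was at 0.19 (SE 0.0917), or 0.28 without KO replicate 3. A list for the transcription of proteasome genes held Nfe2l1, the factor that raises them when the protease is short, and other genes such as Nfe2l2. Of its 8 genes 3 were negative and 5 positive, with 0 called by edgeR. Unadjusted, 1 was lower and 2 were higher at a p under 0.05, where 3.06% and 3.86% of all tested genes were. Nfe2l1 itself averaged 205 ± 11.4 CPM over WT and 207 ± 13.8 CPM over KO (SD, n = 3 each), Nfe2l2 had a log2 value of -0.22 (SE 0.0830, edgeR adjusted p = 0.703), and Ngly1, the glycanase that activates Nfe2l1, was at 0.29 (SE 0.123, edgeR adjusted p = 0.713), or 0.19 without WT replicate 3.

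Of 12 genes for ubiquitin, its activation and shuttling, 9 were negative with a median of -0.029 and 0 were called with edgeR (0 at an unadjusted p under 0.05). The polyubiquitin gene Ubb was at 0.10 (SE 0.0793) and the conjugating enzyme gene Ube2d3 at -0.086 (SE 0.0685). Without WT replicate 2 they were 0.17 and -0.057, and without WT replicate 3 Ubb was 0.064. The list's median ran from -0.074 without WT replicate 3 to -0.016 without KO replicate 1, with 7 to 10 of 12 negative. Of 7 genes of interferon gamma signalling 5 were negative with a median of -0.037 and 0 were called with edgeR (0 at an unadjusted p under 0.05). Irf1 was at -0.26 (SE 0.178), and the receptor genes Ifngr1 and Ifngr2 at 0.16 (SE 0.0847) and -0.16 (SE 0.0834). Ifngr1 was 0.095 without KO replicate 2 and Ifngr2 was -0.080 without WT replicate 1. The list's median was -0.18 with 6 of 7 negative without KO replicate 2, and 0.048 with 3 of 7 negative without both WT replicate 1 and KO replicate 1. Nlrc5, the transactivator of class I genes, averaged 144 ± 11.4 CPM over WT and 144 ± 34.1 CPM over KO (SD, n = 3 each).

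The class I partners that receive the proteasome's peptides were negative in 9 of 9, where 50.2% of all tested genes were negative. Their median was -0.17, and 0 were called with edgeR (1, Erap1, at an unadjusted p under 0.05). The values were 8 of 9 and -0.075 without WT replicate 1, without KO replicate 1 they were 6 of 9 and -0.069, and without both they were 4 of 9 and 0.031. Erap1, which trims the peptides, was at -0.21 (SE 0.0955, edgeR adjusted p = 0.713) and Calr, a loading chaperone, at -0.18 (SE 0.0949, edgeR adjusted p = 0.725). The list ran from -0.31 for Tap1 to -0.032 (SE 0.114) for H2-K1 and -0.020 (SE 0.104) for H2-D1, the genes of the class I molecules themselves. Leaving out WT replicate 1 gave -0.12 for Irf1, -0.12 for Erap1 and -0.092 for Calr, and leaving out KO replicate 1 gave -0.082 for Irf1. With both left out, Irf1 was at 0.048.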

How the data were processed

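RNA of sorted tumour macrophages was measured in 6 libraries. The table as deposited holds whole-number read counts for each gene, not normalized. The submitters' processing notes list Trimmomatic, HISAT2, Cufflinks and HTSeq beside build mm10, with neither version nor role. The annotation, the strand setting and the handling of multi-mapping reads are not given in the sources used here. Per the labels, mirVana was the RNA kit and TruSeq stranded mRNA the library kit.

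Genes passed filterByExpr at a minimum count of 10 and a minimum total of 15, leaving 12136, which hold 99.96% of the reads. A quasi-likelihood model with TMM factors and genotype as its only term was fitted to all of them in edgeR 4.0.16 under R 4.3.3. The threshold was a Benjamini-Hochberg adjusted p of 0.05. The code was tested on simulated data. CPM and ratios were computed from the counts. Exon lengths and coordinates come from GENCODE M21, whose assembly GRCm38 is that of mm10, and in it all 51 members were found. DESeq2 1.42.0, limma-voom (limma 3.58.1), other scalings, filters and thresholds, a replicate block and left-out libraries were tried as alternatives.

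Values in each library are given for the interferon-inducible genes, Psmb5, Psmb6, Psmb7, Psme3, Pomp and the 2 tested genes with the smallest p in each other role group. Each list of other pathway genes names 2 genes by the same rule, besides Nfe2l1, Irf1 and Nlrc5. In the interferon list, 1 gene is not reported here and was left out of the counts. Psmd6, Psme2b, Tap1, Tap2, Jak1, Jak2, Irf8, H2-K1, H2-D1 and further members with single values were named after their values were seen. The members and lists were chosen with earlier results of these data known.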

Additional observations from a re-analysis of the deposited data

How the results depend on the processing

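Over all genes, edgeR called 2, and the count was 1 with RLE factors, with library totals alone, with no filter, with a replicate block, with limma-voom and without both WT replicate 1 and KO replicate 1. It was 0 at a mean CPM of at least 1, 27 with DESeq2 and 0 to 5 when single libraries were left out. No proteasome gene was called under any of these settings or at an adjusted p under 0.1. Trmt61a kept log2 values from -1.94 to -1.69 in all of them, and its call was lost in 9 of 14. The members whose KO libraries all lay below the WT libraries numbered 4 to 24 when single libraries were left out, beside 9.17% to 15.7% of all genes, and 24 came without KO replicate 3. The median of the interferon-inducible genes ran from -0.34 to -0.081 over single left-out libraries, and that of the other members from -0.13 to -0.043. With both WT replicate 1 and KO replicate 1 left out, a setting chosen after seeing the data, the interferon-inducible median changed sign to 0.043. Over the left-out libraries, singly or this pair, values ran from -0.29 to 0.048 for Psmb8, -0.36 to 0.043 for Psmb9, -0.35 to 0.043 for Psmb10, -0.25 to 0.00032 for Psme1, -0.16 to 0.043 for Psmb5, -0.11 to 0.0087 for Psmb6 and -0.38 to 0.048 for Irf1, and each was positive for that pair alone. The Psmb10 over Psmb7 difference was -0.20 to 0.027 over single left-out libraries and changed sign without KO replicate 1. Nfe2l1 ran from -0.030 to 0.072, with the sign changed without WT replicate 1 (-0.010), KO replicate 3 and the pair (-0.0082). Nlrc5 ran from -0.20 to 0.17, with the sign changed without KO replicate 2 or WT replicate 2 (-0.053), with the replicate block (-0.018) and with limma-voom (-0.017). The median WT level per length was 36.8 CPM per kb with all exons and 52.9 CPM per kb with the longest transcript, a shorter length by construction. The replicate numbers pair nothing in the labels, and same-numbered libraries did not deviate together (r of -0.057, -0.094 and -0.11). The block left all 50 members uncalled, and their median was -0.097 with it. The cause of these shifts was not tested.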
